A study of Mus musculus with 6 samples.

Results

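The genes described here encode 9 cell surface proteins that are held to the membrane by a glycosylphosphatidylinositol (GPI) anchor: Cd52, Cd24a, Cd48, Cd55, Cd59a, Ly6e, Ly6c1, Prnp and Bst1. They were taken by symbol from tables of 23283 gene symbols, and all 9 were found. Cd52 was chosen because its level was lower with GM-CSF, and the other 8 were set beside it as a contrast, so the members were selected on their FPKM in the GM-CSF and untreated libraries. The levels of all 9 in this comparison are thus a description and carry no test. Eosinophils of the small intestinal lamina propria of wild-type BALB/c mice were cultured for 4 hours, either untreated (3 cultures) or with GM-CSF at 10 ng/ml (3 cultures). No genotype other than wild type and no age is given in the sources used here, and it is not stated that each culture held cells of a different animal. The p-values below therefore speak of variation among cultures, which may be technical. Polyadenylated RNA was sequenced, and the level of a gene is given in FPKM, a measure of sequenced fragments that is corrected for how long a transcript is and how deeply its library was sequenced, summed here over the gene's transcripts.

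A GPI anchor is a preassembled glycolipid that is transferred in the endoplasmic reticulum to the C-terminus of a protein after its signal peptide there has been cut away. The finished protein has no membrane-spanning segment and sits in the outer leaflet of the plasma membrane, often in cholesterol-rich domains, from which phospholipases can release it. On leukocytes the class includes the short sialylated peptides Cd52 and Cd24a, the adhesion ligand Cd48, the complement regulators Cd55 and Cd59a, the small cysteine-rich Ly6 proteins, the prion protein and the ecto-enzyme Bst1.

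The libraries rested on 0.820 to 1.32 gigabases of mapped sequence each. Averaged over all libraries, 10106 genes reached 1 FPKM, 5 of them among the 9 (Cd52, Cd24a, Cd48, Cd55 and Ly6e), and 4 stayed under it (Cd59a, Ly6c1, Prnp and Bst1). Eosinophil markers were present: Ccr3 averaged 289.0 FPKM in untreated and 251.3 FPKM in GM-CSF libraries, and Siglec5, the files' symbol for Siglecf, averaged 170.1 and 170.4 FPKM. Of the 8 eosinophil markers listed, all reached 1 FPKM; Gata1 rose and Alox15, Il5ra, Cebpe and Epx fell. Across the tested genes 21.9% passed limma's test at an adjusted p under 0.05, 7.68% higher and 14.2% lower with GM-CSF, and the median log2 fold change was -0.05.

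Cd52 has the shortest reading frame of the set, 225 bases on 2 exons of the minus strand of chromosome 4 (134093536 to 134095082, GRCm38). The reading frame is printed because it encodes the whole precursor, including the C-terminal signal that is cut away when the anchor is attached. The reference is of C57BL/6J origin and not of BALB/c, and the capitals mark the start and the stop codon.
Cd52 coding sequence: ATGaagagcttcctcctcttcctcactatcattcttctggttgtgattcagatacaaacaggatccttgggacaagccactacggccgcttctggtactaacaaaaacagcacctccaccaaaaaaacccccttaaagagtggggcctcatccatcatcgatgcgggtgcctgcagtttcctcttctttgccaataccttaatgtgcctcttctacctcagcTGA
The first 51 bases come from the first exon and the rest from the second. The transcript in the tables was 503 nt long, the shortest of the 9 genes' highest transcripts, and no annotated exon of another gene overlapped it.

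Cd52 encodes a very short peptide that carries a large carbohydrate at the surface of lymphocytes and some myeloid cells. It measured 224.9, 240.7 and 245.0 FPKM in the untreated libraries and 97.1, 85.6 and 98.7 FPKM in the GM-CSF libraries. All 3 GM-CSF libraries were below all 3 untreated ones, and the highest GM-CSF library was under the lowest untreated library by a wide margin. The means were 236.8 ± 10.6 and 93.8 ± 7.15 FPKM (SD, n = 3 each), a level 2.52 times lower with GM-CSF and a log2 fold change of -1.33 (SE 0.07) on the scale of log2(FPKM + 1). Of the 10106 tested genes, 88, Cd52 included, had a log2 fold change at or below this one. By mean level it was the 325th most abundant gene in untreated and the 840th in GM-CSF libraries. These values rested on at most about 2696, 2992 and 2865 reads in untreated and 1103, 1447 and 1033 reads in GM-CSF libraries. The numbers are upper bounds, because the way they were estimated overstates the reads of a short transcript. Even well below them, counting error would be small beside the difference. In bulk RNA, fewer cells of a type and less RNA per cell cannot be told apart.

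Cd24a, or heat-stable antigen, is the other very short glycoprotein of the set, with a reading frame of 231 bases (chromosome 10, 43579169 to 43584265, plus strand). It measured 407.0, 416.7 and 462.4 FPKM in untreated and 406.7, 429.0 and 440.7 FPKM in GM-CSF libraries. The groups overlapped, and the means of 428.7 ± 29.6 and 425.5 ± 17.3 FPKM (SD, n = 3 each) lay closer together than the spread within either group (log2 fold change -0.01, SE 0.06). Cd24a was the most abundant of the 9 genes in all 6 libraries. The level of Cd24a was 1.81 ± 0.0780 times that of Cd52 in untreated libraries and 4.55 ± 0.418 times with GM-CSF (SD, n = 3 each).

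Cd48 encodes an adhesion protein of the SLAM family (chromosome 1, 171682010 to 171705256, plus strand). It measured 44.1, 50.5 and 51.4 FPKM in untreated and 43.1, 44.5 and 51.0 FPKM in GM-CSF libraries. The groups overlapped here too, with a log2 fold change of -0.07 (SE 0.09). Cd24a and Cd48 therefore kept nearly the same ratio to each other, 8.83 ± 0.508 in untreated and 9.24 ± 0.535 in GM-CSF libraries (SD, n = 3 each).

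**Figure D1:**
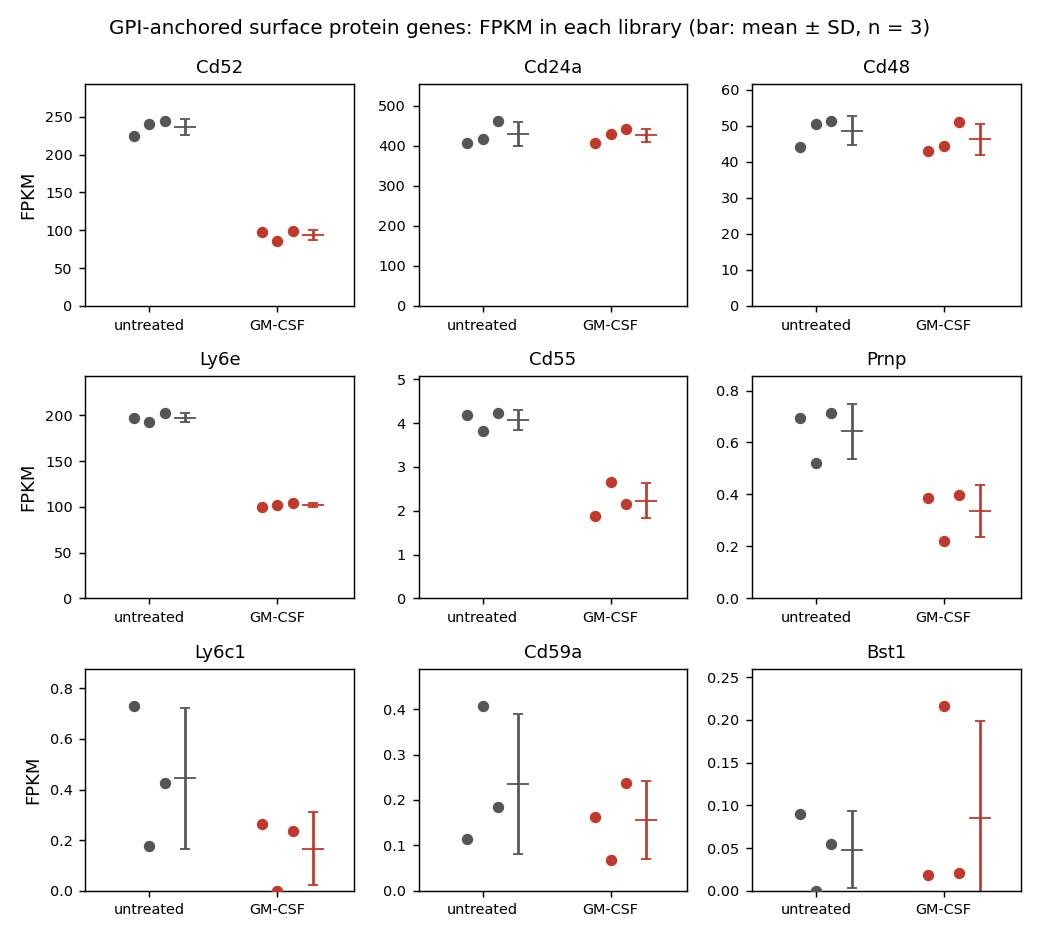
FPKM of each of the 9 genes in each library, with untreated cultures in grey and GM-CSF cultures in red, on linear axes that start at 0 and differ between panels; bars give the mean ± SD of 3 libraries, and the lower SD bar of Bst1 is cut at 0. Cd52, Ly6e, Cd55 and Prnp show no overlap between the groups, Cd24a and Cd48 overlap, and Ly6c1, Cd59a and Bst1 stay under 1 FPKM in every library.

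Cd55 and Cd59a protect cells from their own complement: Cd55 (decay-accelerating factor) dissociates the C3 convertases, and Cd59a blocks assembly of the membrane attack complex. Cd55 (chromosome 1, 130439027 to 130462744, minus strand) measured 4.19, 3.82 and 4.23 FPKM in untreated and 1.89, 2.66 and 2.14 FPKM in GM-CSF libraries. The 3 GM-CSF libraries were all lower, and the means of 4.08 ± 0.228 and 2.23 ± 0.395 FPKM (SD, n = 3 each) gave a log2 fold change of -0.66 (SE 0.11). Its values rested on 108 to 253 reads per library. With a pseudocount of 0.1 in place of 1 the log2 fold change was -0.85.

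The neighbouring copy of Cd55 is listed under Daf2, an older symbol of Cd55b. It measured 1.20, 0.922 and 1.42 FPKM in untreated and 0.469, 0.570 and 0.529 FPKM in GM-CSF libraries, lower in all 3. It averaged under 1 FPKM and was not tested, and reads of this similar pair may have been divided with error. An annotated antisense transcript, Gm16083, also overlaps an exon of Cd55. Cd59a was near the detection limit, with 0.114, 0.407 and 0.184 FPKM in untreated and 0.163, 0.0677 and 0.237 FPKM in GM-CSF libraries, on 4 to 17 reads. Its groups overlapped. Cd59b, its copy on the same chromosome, was listed at 0 in all 6 libraries.

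Ly6e and Ly6c1 belong to the Ly6 family of small disulfide-rich proteins, whose genes lie together on chromosome 15. Ly6e (74955071 to 74959905, plus strand) measured 196.7, 192.7 and 202.3 FPKM in untreated and 99.3, 102.1 and 104.5 FPKM in GM-CSF libraries. The groups were far apart and each was tight, with means of 197.2 ± 4.86 and 102.0 ± 2.61 FPKM (SD, n = 3 each), a level 1.93 times lower with GM-CSF and a log2 fold change of -0.95 (SE 0.04). With median-of-ratios scaling the log2 fold change was -0.87. The tables list 6 transcripts of Ly6e, and the one of 1864 nt held between 96.7% and 98.3% of the gene's FPKM in every library. The transcript make-up of Ly6e was thus nearly the same with and without GM-CSF, while its level differed.

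Ly6c1 measured 0.731, 0.177 and 0.425 FPKM in untreated libraries and 0.263, 0 and 0.238 FPKM in GM-CSF libraries. The groups overlapped on at most 15 reads per library. Its near-identical neighbour Ly6c2 averaged 0.595 and 0.480 FPKM, and reads of the pair may have been divided with error. Of the other Ly6 genes listed, none averaged 1 FPKM: Ly6a, the Sca-1 antigen, averaged 0.506 FPKM in untreated and 0.183 FPKM in GM-CSF libraries.

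Prnp encodes the cellular prion protein, which binds copper, and Bst1 encodes CD157, an ecto-enzyme related to CD38. Prnp (chromosome 2, 131909928 to 131938429, plus strand) measured 0.696, 0.522 and 0.713 FPKM in untreated and 0.387, 0.219 and 0.398 FPKM in GM-CSF libraries. The 3 GM-CSF libraries were lower without overlap, on 28 to 36 reads in untreated and 16 to 19 reads in GM-CSF libraries. Exons of the annotated gene Prn on the same strand overlap Prnp, so reads there cannot be assigned by strand. Its log2 difference was -0.30 (SE 0.08), where the pseudocount of 1 shrinks a gene at this level, and the ratio of means was 1.92. Bst1 (chromosome 5, 43818891 to 43843986, plus strand) rested on 5, 0 and 3 reads in untreated and 1, 17 and 1 reads in GM-CSF libraries. The high value of 0.217 FPKM came from GM-CSF replicate 2, the most deeply sequenced library, and the other 5 libraries lay between 0 and 0.0898 FPKM. Exons of Fbxl5 on the opposite strand overlap Bst1, and the sources used here do not say whether the authors' quantification used the strand.

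Among the 5 genes over 1 FPKM, groups were apart and lower with GM-CSF for 3 (Cd52, Ly6e and Cd55). Over all tested genes, groups were apart and lower for 26.0%. Since the genes were chosen with this comparison in view, nothing is read from that count. FPKM is per length, so levels may be ordered between genes. In untreated libraries the order was Cd24a, Cd52, Ly6e, Cd48 and Cd55, with no overlap between neighbours over the 3 libraries. In GM-CSF libraries Ly6e stood above Cd52: the ratio of Cd52 to Ly6e was 1.14, 1.25 and 1.21 in untreated and 0.978, 0.839 and 0.945 in GM-CSF libraries. The order of these 2 genes in FPKM was thus reversed in all 3 GM-CSF libraries, although both were lower there. The ratios lay near 1, and an error in the length correction of the short Cd52 transcript would shift every library alike. The change of the ratio is therefore firmer than the order itself. Below 1 FPKM, the untreated range of Ly6c1 overlapped those of both Prnp and Cd59a, while Prnp lay above Cd59a and all 3 lay above Bst1. In GM-CSF libraries the ranges of Prnp, Ly6c1, Cd59a and Bst1 each overlapped with at least another of them, so that no order is given for them there.

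Several of these proteins have a known binding partner, and 6 such genes were listed beside them. Of the 5 at 1 FPKM or more, 2 rose, 0 fell and 3 did not pass, where 7.68% of all tested genes rose and 14.2% fell (median log2 fold change 0.18, against -0.05 over all tested genes). That median is the value of Stip1, which did not pass. The list was chosen with earlier results of these data known, so nothing is read from its counts or median. Siglecg encodes an inhibitory sialic acid-binding receptor that recognises Cd24. It measured 4.99, 4.13 and 4.49 FPKM in untreated and 18.9, 20.1 and 18.7 FPKM in GM-CSF libraries. Siglecg rose in all 3 GM-CSF libraries (limma adjusted p = 1.93e-05 for a log2 fold change of 1.87, SE 0.07), while Cd24a itself stayed within its spread. Cd97, also called Adgre5, is an adhesion G protein-coupled receptor that binds Cd55. It measured 47.3, 46.3 and 53.5 FPKM in untreated and 130.4, 126.8 and 140.8 FPKM in GM-CSF libraries. Cd97 rose (limma adjusted p = 5.08e-05 for a log2 fold change of 1.42, SE 0.07), so that the ratio of Cd55 to Cd97 went from 0.0834 ± 0.00498 in untreated to 0.0169 ± 0.00358 in GM-CSF libraries (SD, n = 3 each).

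The partners of Cd48 differed from these. Cd244, the 2B4 receptor for Cd48, measured 34.2, 34.8 and 36.8 FPKM in untreated and 32.9, 32.4 and 36.2 FPKM in GM-CSF libraries (log2 fold change -0.06, limma adjusted p = 0.526). Cd2, a T cell adhesion receptor that binds Cd48 in mice, averaged 1.81 and 1.18 FPKM (log2 fold change -0.36, limma adjusted p = 0.206). Stip1, a co-chaperone reported to bind the prion protein, averaged 69.1 and 78.3 FPKM (log2 fold change 0.18, limma adjusted p = 0.0547) and passed under 5 of 15 alternatives. Selp, the P-selectin that binds Cd24, averaged 1.12 and 0.602 FPKM, under 1 FPKM over all libraries, and was not tested.

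**Figure D2:**
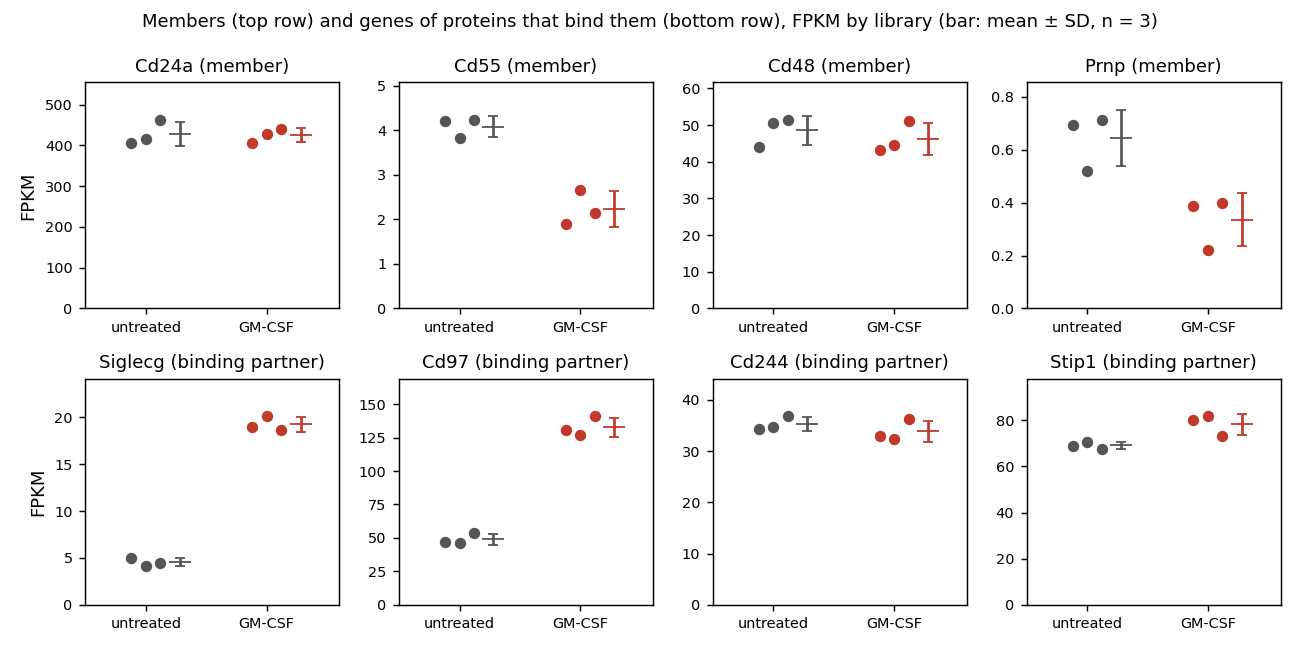
FPKM by library of 4 of the 9 genes (top row) and of a gene whose protein binds each of them (bottom row, in the same order), with untreated cultures in grey, GM-CSF cultures in red and bars for the mean ± SD of 3 libraries; axes are linear and start at 0. Siglecg and Cd97 are higher in all 3 GM-CSF libraries, while Cd24a overlaps between the groups and Cd55 is lower.

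Other GPI-anchored proteins were taken as a list of 116 genes, of which 115 were matched and 14 averaged at least 1 FPKM. Of these 14, 3 rose, 1 fell and 10 did not pass, and their median log2 fold change was 0.07. The list also holds H60b (log2 fold change 0.36) and Ulbp1 (0.03), which encode membrane-spanning proteins without a GPI anchor. Both are among the genes that did not pass. The median includes them, and nothing is read from its sign. The share called in this list is to be read beside the 21.9% called over all tested genes. Plaur, the urokinase receptor and the most abundant of the listed GPI genes in these cultures, measured 709.8, 716.2 and 616.7 FPKM in untreated and 1052, 1003 and 876.1 FPKM in GM-CSF libraries. Plaur rose (limma adjusted p = 0.00778 for a log2 fold change of 0.52, SE 0.09). Mmp25, a GPI-anchored metalloproteinase of granulocytes, rose from 220.0 ± 10.9 to 352.5 ± 9.62 FPKM (SD, n = 3 each; limma adjusted p = 0.000196 for a log2 fold change of 0.68, SE 0.05). Sema7a, a semaphorin that binds integrins, rose from 115.5 ± 4.79 to 143.8 ± 2.38 FPKM (SD, n = 3 each; limma adjusted p = 0.00313 for a log2 fold change of 0.31, SE 0.04). All 3 moved in the direction opposite to the difference seen in Cd52.

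Dpep2, a dipeptidase that acts on leukotriene D4, was the member of that list that fell, from 34.4 ± 1.90 to 29.1 ± 1.67 FPKM (SD, n = 3 each; limma adjusted p = 0.0372 for a log2 fold change of -0.24, SE 0.06). That call was lost under 11 of 15 alternatives, among them leaving out any 1 of the 6 libraries (log2 fold change -0.19 to -0.27). Of those that did not pass, the most abundant were the glypican Gpc1 (54.9 and 48.9 FPKM, log2 fold change -0.16, limma adjusted p = 0.131), the netrin-G Ntng2 (log2 fold change -0.21, limma adjusted p = 0.0610) and Cd14, the lipopolysaccharide co-receptor (20.7 and 25.3 FPKM, log2 fold change 0.27, limma adjusted p = 0.0664).

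**Figure D3:**
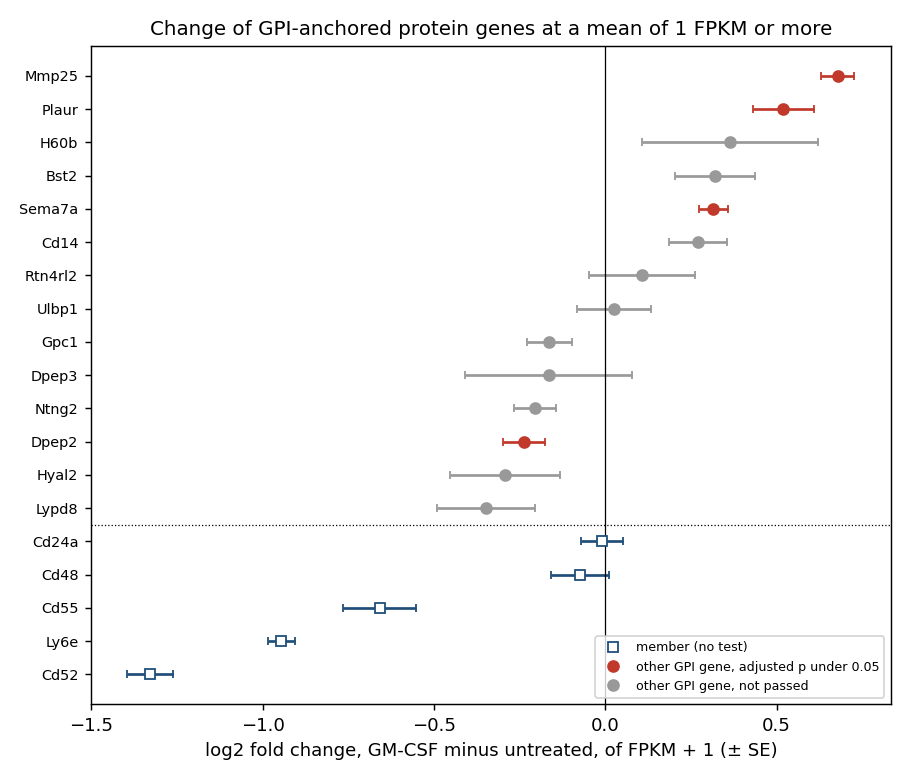
Log2 fold change (x axis, GM-CSF minus untreated, on FPKM + 1, bars ± SE) of the 5 genes of the set over 1 FPKM (open squares below the dotted line, without a test) and of the 14 genes over 1 FPKM in the list of other GPI-anchored proteins (red where the limma adjusted p was under 0.05, grey otherwise). H60b and Ulbp1, which encode membrane-spanning proteins, are among these 14. Cd52 at -1.33, Ly6e at -0.95 and Cd55 at -0.66 lie to the left of all 14 others, and Mmp25 at 0.68 and Plaur at 0.52 lie farthest to the right.

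Together the 9 genes and the 115 others, H60b and Ulbp1 included, form a group of 124 listed genes, 19 of which averaged at least 1 FPKM and 21 of which were listed at 0 in every library. Their summed level was 2111 ± 16.2 FPKM in untreated and 2312 ± 63.9 FPKM in GM-CSF libraries (SD, n = 3 each). The sum was therefore slightly higher with GM-CSF, although Cd52 and Ly6e were lower. Cd52 held 11.2% ± 0.438 of the sum in untreated and 4.06% ± 0.378 in GM-CSF libraries (SD, n = 3 each), and went from the third to the sixth place. Ly6e held 9.35% ± 0.262 and 4.41% ± 0.232, and Cd24a 20.3% ± 1.37 and 18.4% ± 1.22. Plaur held 32.3% ± 2.66 and 42.2% ± 2.80, and Mmp25 10.4% ± 0.540 and 15.3% ± 0.843. As shares of one sum, these values are not independent of each other.

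**Figure D4:**
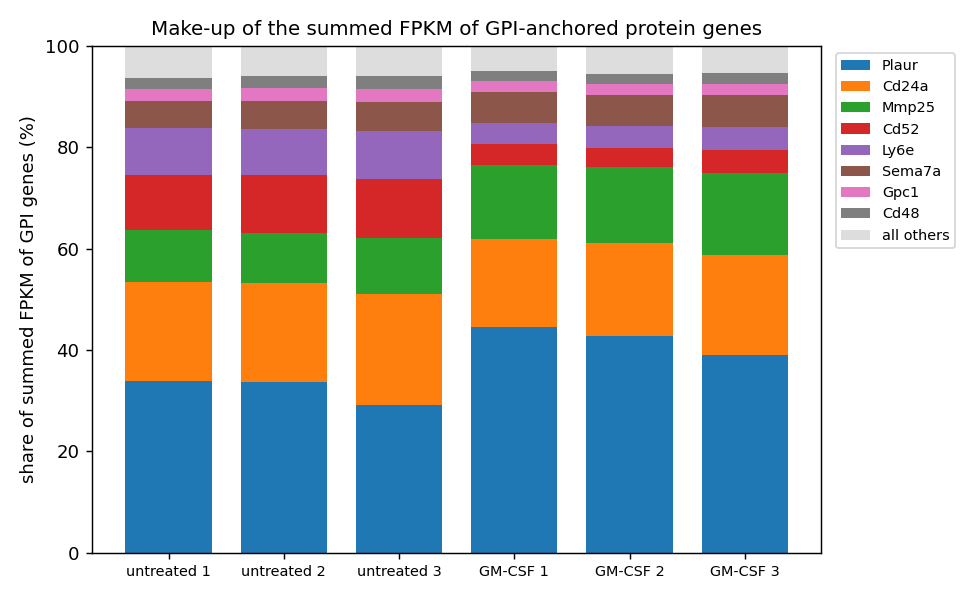
Share of the summed FPKM of the 124 listed genes (y axis, percent) held by the 8 most abundant of them in each of the 6 libraries (x axis), with all others in light grey. The red band of Cd52 goes from 10.7% to 11.6% in untreated libraries to 3.66% to 4.41% in GM-CSF libraries, while the blue band of Plaur and the green band of Mmp25 are wider there.

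Of 25 listed genes that build the anchor and join it to proteins, 24 were matched and 23 were tested: 1 rose, 2 fell and 20 did not pass (median log2 fold change -0.06). Over all tested genes, 7.68% rose and 14.2% fell. Pigf, needed to add the ethanolamine phosphate through which proteins are linked, measured 4.29, 6.60 and 5.10 FPKM in untreated and 10.7, 12.3 and 9.54 FPKM in GM-CSF libraries. Pigf rose without overlap of the groups (limma adjusted p = 0.00677 for a log2 fold change of 0.91, SE 0.15). Pigb, the transferase for the third mannose, fell from 10.1 ± 0.512 to 5.85 ± 0.476 FPKM (SD, n = 3 each; limma adjusted p = 0.00111 for a log2 fold change of -0.70, SE 0.07). Gpaa1, a subunit of the transamidase that attaches the anchor, fell from 18.8 ± 0.794 to 14.3 ± 1.10 FPKM (SD, n = 3 each; limma adjusted p = 0.00950 for a log2 fold change of -0.37, SE 0.07). The other tested transamidase subunits Pigk, Pigs, Pigt and Pigu had log2 fold changes from -0.15 to 0.09 and did not pass. The most abundant genes that did not pass were Dpm3 (46.0 and 53.3 FPKM) and Dpm2 (46.7 and 48.7 FPKM), subunits of the enzyme that supplies mannose, and Pigt (29.9 and 27.4 FPKM). The summed level of the 24 genes was 302.1 to 302.6 FPKM in untreated and 295.4 to 301.9 FPKM in GM-CSF libraries.

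Of 13 genes for remodelling, transport or cutting of the anchor, 9 were tested: 1 rose, 2 fell and 6 did not pass, beside 7.68% higher and 14.2% lower among all tested genes. Tmed5, a p24 cargo receptor that carries GPI proteins out of the endoplasmic reticulum, rose from 29.0 ± 1.19 to 40.6 ± 2.29 FPKM (SD, n = 3 each; limma adjusted p = 0.00195 for a log2 fold change of 0.47, SE 0.06). Mppe1, which removes an ethanolamine phosphate from the anchor before export, fell from 12.4 ± 1.12 to 9.37 ± 0.538 FPKM (SD, n = 3 each; limma adjusted p = 0.0186 for a log2 fold change of -0.37, SE 0.08). Its call was lost without untreated replicate 2 (log2 fold change -0.33), untreated replicate 3 (-0.34) or GM-CSF replicate 1 (-0.33). Pgap2, which acts in fatty acid remodelling, fell from 7.91 to 6.30 FPKM (limma adjusted p = 0.0479 for a log2 fold change of -0.29, SE 0.08), a call lost under 12 of 15 alternatives, among them leaving out any 1 of the 6 libraries (log2 fold change -0.23 to -0.33). The most abundant genes of this list that did not pass were the p24 receptors Tmed2 (130.7 and 126.3 FPKM), Tmed9 (58.1 and 63.9 FPKM) and Tmed10 (40.2 and 39.2 FPKM). Gpld1, the phospholipase that cuts the anchor, had a log2 fold change of 0.08 (limma adjusted p = 0.706).

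**Figure D5:**
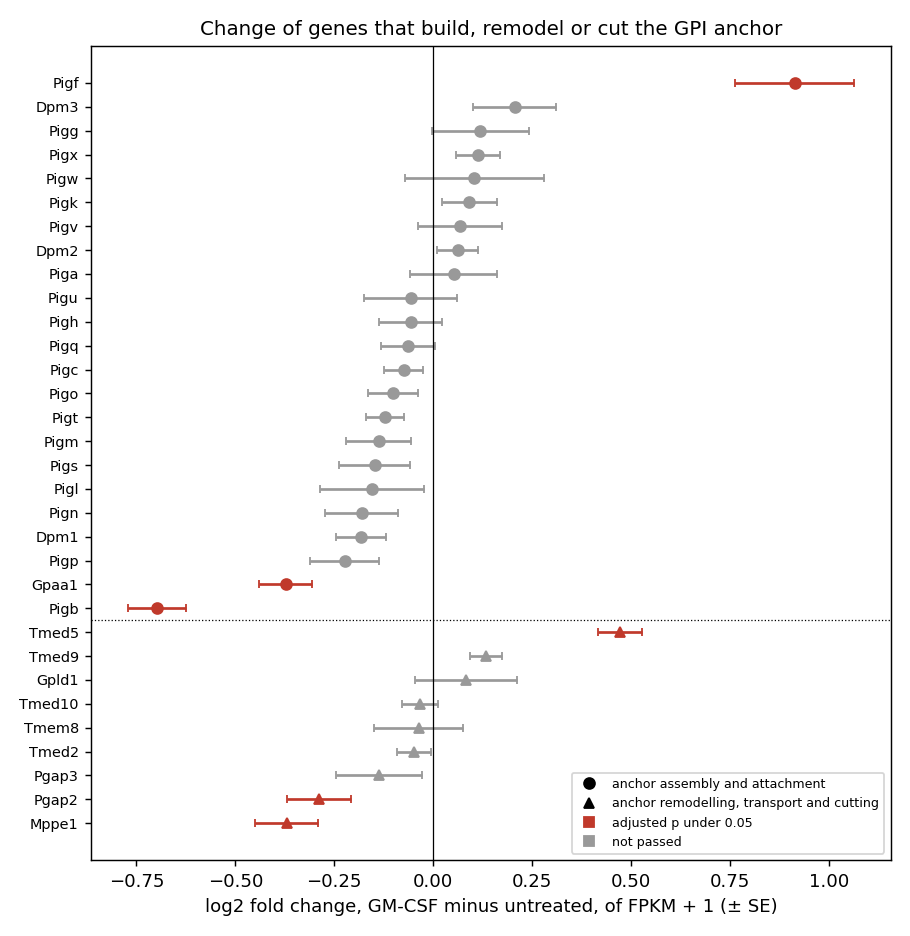
Log2 fold change (x axis, GM-CSF minus untreated, on FPKM + 1, bars ± SE) of 23 genes for assembly and attachment of the GPI anchor (circles) and 9 genes for its remodelling, transport or cutting (triangles, below the dotted line), red where the limma adjusted p was under 0.05. Pigf at 0.91 and Pigb at -0.70 stand farthest from 0, and 20 circles and 6 triangles are grey.

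Promoter windows from RefSeq (GRCm38.p6, from 250 bases before to 50 after the start) were at hand for 5 of the 9 genes: Cd48, Cd55, Cd59a, Ly6c1 and Prnp. Those not matched were Cd52, Cd24a, Ly6e and Bst1. The windows of Cd55, which was lower with GM-CSF, and Cd48, which lay within its spread, are shown as the pair over 1 FPKM that differed in this way. Capitals mark matches, on either strand, to the 3 motifs searched: the STAT core TTCNNNGAA, the ETS motif CCGGAAGT and the GC box GGGCGG.
Cd55, chr1:130462695-130462994, minus strand: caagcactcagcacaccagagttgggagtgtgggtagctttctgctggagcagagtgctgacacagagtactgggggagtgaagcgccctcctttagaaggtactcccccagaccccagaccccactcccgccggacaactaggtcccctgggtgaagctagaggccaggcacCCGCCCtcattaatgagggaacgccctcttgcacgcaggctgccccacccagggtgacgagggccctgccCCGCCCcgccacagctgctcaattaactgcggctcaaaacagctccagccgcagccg
Cd48, chr1:171681742-171682041, plus strand: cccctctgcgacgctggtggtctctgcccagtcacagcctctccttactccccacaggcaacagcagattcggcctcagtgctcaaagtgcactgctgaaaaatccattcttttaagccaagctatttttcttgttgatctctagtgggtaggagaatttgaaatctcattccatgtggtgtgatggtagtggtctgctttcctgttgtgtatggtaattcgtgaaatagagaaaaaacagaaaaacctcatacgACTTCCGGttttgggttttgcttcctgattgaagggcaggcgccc
Cd55 held 2 GC boxes and Cd48 held 1 ETS motif that begins 5 bases after the start. The GC content was 63.3% in the Cd55 window and 47.3% in the Cd48 window, against a median of 52.7% over 32851 windows. Prnp held 3 GC boxes, and Cd59a and Ly6c1 held none of the 3 motifs. No window of the 5 genes held TTCNNNGAA, which 8.30% of all windows hold, while the ETS motif is in 3.89% and the GC box in 35.7%. These matches describe letters in a window and show no binding.

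Genes near to Cd52 in their pattern were sought among the other 5300 genes that averaged 10 FPKM or more, by Euclidean distance between log2 values centred on each gene's mean over the 6 libraries. Among the 5 nearest were Rassf2, a Ras association domain protein (distance 0.27, log2 fold change -1.23), the 12/15-lipoxygenase gene Alox15 (0.36, -1.54), the mitochondrial ribosome factor Rbfa (0.39, -1.04) and the prolyl endopeptidase gene Prep (0.40, -1.03). Rassf2 measured 34.2, 34.5 and 38.5 FPKM in untreated and 13.8, 15.2 and 15.1 FPKM in GM-CSF libraries. With 6 libraries in 2 groups, this distance mostly measures the size of the group difference. None of these 4 encodes a GPI-anchored protein of the lists used here.

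Cd52, Cd48, Ly6e and Cd24a are also made by lymphocytes and other cells. The summed markers of lymphocytes, macrophages and dendritic cells, neutrophils and epithelial cells were lower with GM-CSF. The summed level of 6 B and plasma cell markers was 30.7 to 38.0 FPKM in untreated and 16.1 to 17.5 FPKM in GM-CSF libraries, 1.96 times lower by the means, and all 5 tested markers fell, where 14.2% of all tested genes fell. For 6 T cell markers the sum was 26.2 to 28.5 and 14.9 to 18.3 FPKM, 1.69 times lower, and 4 of 5 tested markers fell. The difference of the Cd52 means was 143.0 FPKM and that of the Ly6e means 95.3 FPKM. The most abundant lymphocyte markers were Cd79a and Cd3g, each under 12 FPKM in every library. How much Cd52 or Ly6e RNA a lymphocyte holds beside these markers was not measured, so the levels cannot be set against each other. Macrophage and dendritic cell markers summed to 30.8 to 41.2 and 19.1 to 22.2 FPKM, 5 neutrophil markers to 61.6 to 73.4 and 42.1 to 56.0 FPKM with Camp and Elane listed at 0 throughout, and epithelial markers to 78.5 to 84.5 and 53.4 to 65.3 FPKM. Both tested macrophage markers, 1 of 3 neutrophil and 4 of 5 epithelial markers fell. The remaining tested epithelial marker, Epcam, averaged 11.8 FPKM in untreated and 14.6 FPKM in GM-CSF libraries, with overlapping groups (log2 fold change 0.27, limma adjusted p = 0.198). The most abundant markers of these lists were Apoe, S100a9, which did not pass, and Krt18. Stromal and endothelial markers summed to at most 0.183 FPKM. Of 8 eosinophil markers, 1 rose and 4 fell, and their sum was 1129 to 1314 FPKM in untreated and 741.6 to 844.2 FPKM in GM-CSF libraries. The means of this sum were 1204 and 795.3 FPKM, and those of Alox15 alone, the most abundant of the 8, were 460.6 and 157.0 FPKM. Most of the fall in the sum was thus that of Alox15, and Siglec5, Ccr3 and Prg2 did not pass. The part of other cells in the levels of Cd52, Ly6e and Cd55 was not tested.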

How the data were processed

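TopHat, TopHat2, Cufflinks, bcl2fastq 1.8.4 and the build mm10 are named, without settings, per the submitters' processing notes. Trizol RNA went into a stranded Illumina mRNA kit, per the labels' protocols. Per the file headers, the authors deposited 1 table per library of 30374 RefSeq transcripts with FPKM, coverage and length. Deposited coverage divided by FPKM was constant within a library and gave the depth. Read numbers are coverage times length divided by 39.4 bases, the smallest step seen at Bst1, and are approximate. The step was larger for shorter transcripts, so the reads of short transcripts such as those of Cd52 and Ly6c1 are overstated. How the authors divided reads between similar genes: not given in the sources used here.

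FPKM were summed per symbol. Genes averaging 1 FPKM or more were tested on log2(FPKM + 1) with limma 3.58.1 (R 4.3.3, empirical Bayes with trend, two-sided); p-values were adjusted by Benjamini-Hochberg over all tested genes, and those under 0.05 passed. A pseudocount of 1 understates changes of low genes. The model was tested on simulated data. Coordinates are those of GENCODE M21 on GRCm38, matched by RefSeq accession. The genes and lists were chosen with earlier results of these data known. Named genes are the 9, up to 8 passing and the 3 most abundant non-passing genes of each list, and the 5 nearest to Cd52, of which 1 is not reported here. Ly6g and Pigy were listed but not matched. 15 alternatives were run on pseudocount, filter, scaling, transcripts, replicate block and single libraries.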

Additional observations from a re-analysis of the deposited data

How the results depend on the processing

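The log2 fold change of Cd52 lay between -1.37 and -1.25 under all 15 alternatives, and no gene named from the fit reversed its direction past the threshold. Changed genes numbered 2212 (776 up, 1436 down) and between 1515 and 2455 under the alternatives. With median-of-ratios scaling 1078 were up and 969 down, and with quantile normalization 950 were up and 1111 down, so the excess of falls over all genes depends on the scaling. Counts of called genes among other GPI-anchored genes (4), anchor assembly genes (3) and binding partners (2) stayed within 1.5 times of these values under every alternative; for remodelling and cleavage genes (3), leaving out 1 library gave 1 to 2. Calls were lost for Pgap2 (12 alternatives), Dpep2 (11) and Mppe1 (3), and genes that had not passed did so for Stip1 (5 alternatives), Cd14 (3), Ntng2 (3), Tmed9 (2), Bst2 (1) and Pigx (1). Whether equal replicate numbers share an animal, day or batch is not stated. Deviations of same-numbered libraries correlated at -0.03, 0.05 and -0.02, and those of differently numbered ones at between -0.07 and 0.09. Such values cannot decide whether the cultures were paired. With the replicate block 1996 genes passed, 4 of the other GPI-anchored genes (4 up, 0 down), 3 assembly, 2 remodelling and cleavage genes and 3 binding partners, and the Cd52 log2 fold change was -1.33. Cd59a, Ly6c1, Prnp and Bst1, the members under 1 FPKM, rest on at most about 36 reads per library, which limits what can be said of them.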
